A study of Mus musculus with 4 samples.

Results

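DNA replication genes encode the proteins that license origins, open and copy the double helix, supply its nucleotides and repackage the new strands into chromatin. The 52 genes listed were chosen by name for these roles, by no rule on their values but with earlier results of these data known. Each was read from the probe sets whose platform annotation gives that symbol alone, by the brightest one over the 4 arrays, with the others beside it. Such a probe set existed for 51 of them, among 18193 genes named on the arrays in this way; Chaf1a was not matched and was not analysed here. All 51 brightest probe sets passed the filter on dim signals, which used the mean over all arrays and not the groups.

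The study compared unsorted thymus cells (total thymocytes) from mice carrying a hypomorphic (reduced-function) allele of Atg16l1 with those of control mice, which the sample descriptions call wild type. The ATG16L1 protein takes part in autophagy, where it helps to couple LC3 to membranes. Both groups were 7 weeks old and held 2 independent animals, a male and a female, 1 array per animal, and the sexes are not assigned to arrays in the labels. The sources used here name neither the strain nor how the allele was made, and no treatment is stated for either group.

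Replication starts when the origin recognition complex, with Cdc6 and Cdt1, loads the ring-shaped MCM helicase onto DNA in G1 phase. In S phase the kinase Cdc7 with Dbf4, together with Cdc45 and the GINS complex, turns the loaded rings into active helicases, and polymerases held by the sliding clamp PCNA copy both strands. In the thymus most cells are small resting thymocytes that carry both CD4 and CD8, while bursts of division take place in immature cells around selection for the T cell receptor beta chain. In a mixture of cells such as this one, fewer cells of a type and less RNA per cell cannot be told apart.

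Median signals ranged from 23.5 to 38.4 between arrays, so each array was centred on a common median before analysis. Values below called centred signals are on that scale. After centring, the 10232 genes that passed the filter, read by their brightest probe sets, kept a median difference of 0.21 log2 units (hypomorph minus control), and changes are therefore also given relative to that median. Atg16l1 itself had centred signals of 78.2 and 70.8 in hypomorph replicates 1 and 2 against 212 and 241 in the controls, a log2 change of -1.57 ± 0.18 (SE), and limma gave an adjusted p of 0.0142.

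Most replication genes were slightly higher in hypomorph thymocytes, and none passed the test singly. Of the 51 genes, 45 had a log2 change above the median of the tested genes, where by construction 50% of genes lie. Their median was 0.21 above it, a factor that Cdt1, the middle gene in the order, shows at 1.16-fold. Changes relative to the median ranged from -0.29 for Mcm6 to 0.49 for Tk1, and 37 genes lay above the upper quartile of the tested genes (0.12). No member had an adjusted p under 0.05 in limma, the smallest being 0.147 for Mcm3 and Lig1, while 5 genes of all those tested did (0.0489%).

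**Figure D1:**
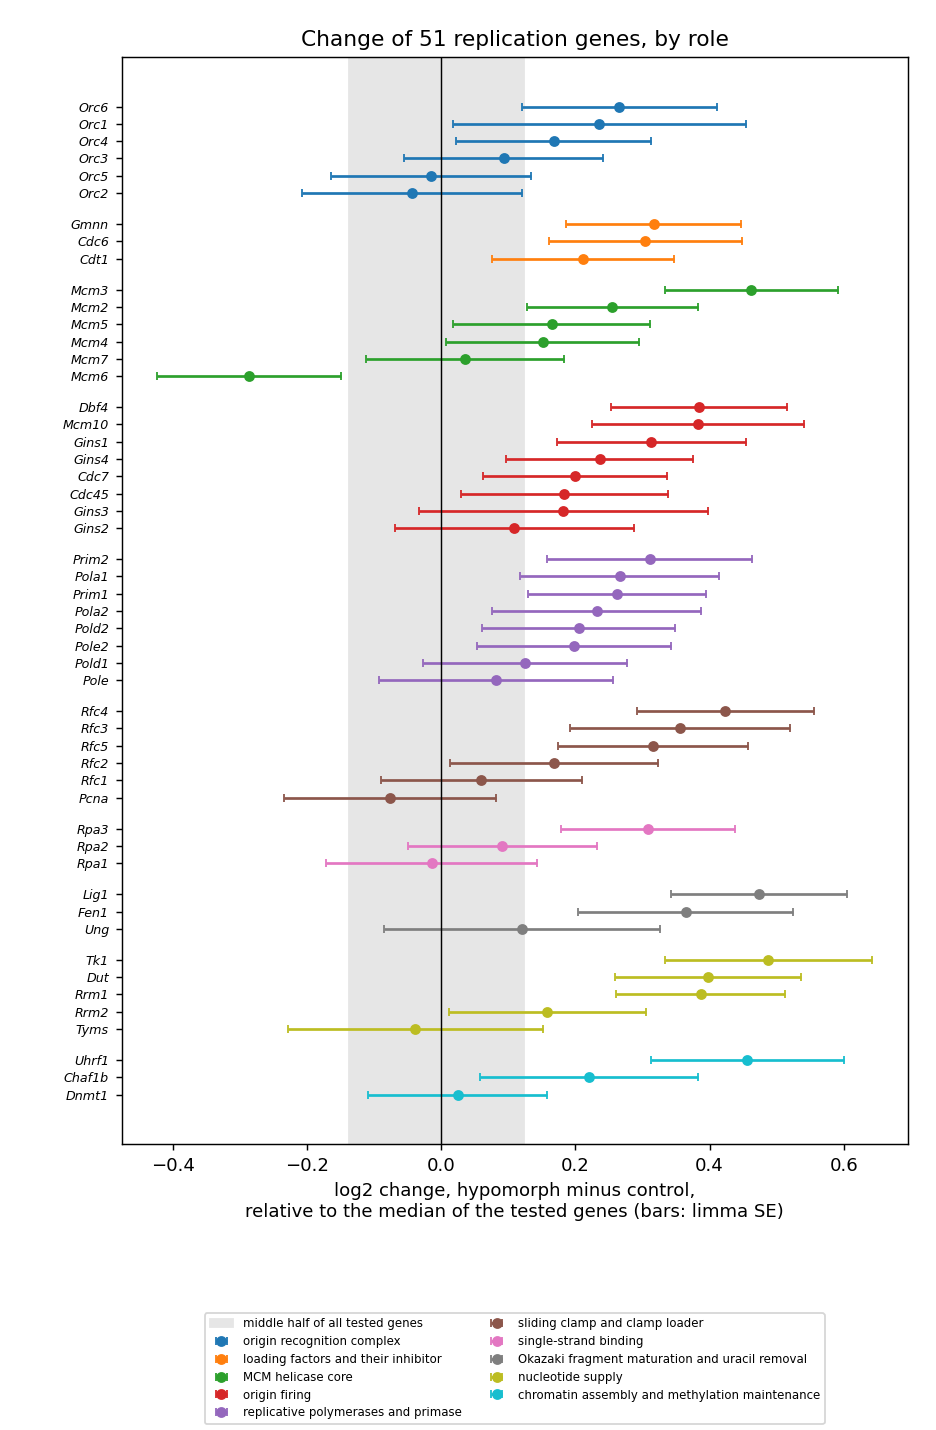
Log2 change of each of the 51 replication genes relative to the median of the tested genes (x axis; bars are limma standard errors), ordered by role on the y axis. The grey band spans the quartiles of all tested genes, from -0.14 to 0.12; 37 members lie to its right and 1, Mcm6, to its left.

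At an unadjusted p under 0.05 in limma, 35 members were higher and none lower, against 18.3% of all tested genes that were higher. That test is against a change of 0, so the shift of 0.21 enters it. When the centring used only probe sets that passed the filter, the shift was 0.04 and 22 members were higher against 4.38% of tested genes, and with quantile normalization (shift 0.02) 15 were higher against 3.41% of tested genes, while 1, Mcm6, was lower. Without hypomorph replicate 2 the count was 22 members (43.1%) against 8.85% of the tested genes; that fit holds a single hypomorph array, which is assumed to vary like the controls. Without control replicate 2, 37 members lay above the median in place of 45, with a median of 0.17.

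The centred signals of the groups did not overlap for 48 of 51 members, each higher in the hypomorphs, where 51.7% of tested genes did the same. Later statements that the groups of a gene did not overlap use these centred signals and are to be read against that share. Once each array was set on its own median tested gene, 29 members stood apart with the hypomorphs higher, against 16.2% of tested genes, and 1, Mcm6, with the hypomorphs lower. On this last scale the median member lay 1.02 log2 units above the median tested gene on both hypomorph arrays and 0.87 and 0.82 above it on the control arrays. Both control values were thus below both hypomorph values. The members are mostly bright: in 4 equal bins of mean level, from dim to bright, there were 0, 7, 23 and 21 of them, and the tested genes of those bins had median changes of -0.12, 0.0039, 0.04 and 0.01 relative to all. Within their own bin, 5 of 7, 22 of 23 and 18 of 21 members lay above its median.

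**Figure D2:**
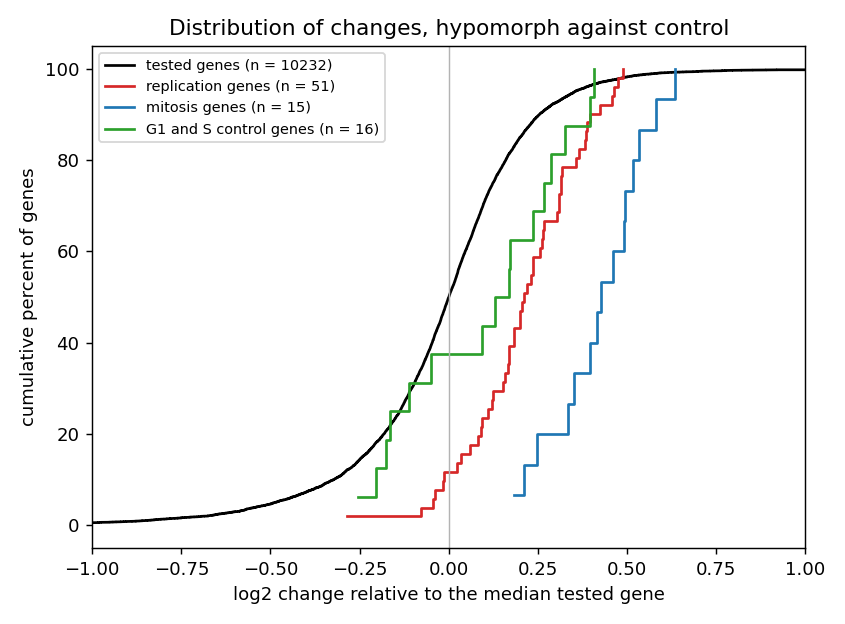
Cumulative percent of genes (y axis) by log2 change relative to the median tested gene (x axis) for the 10232 tested genes, 51 replication genes, 15 mitosis genes and 16 G1 and S phase control genes. The median is 0.21 for the replication genes, 0.43 for the mitosis genes and 0.15 for the control genes; the axis ends at -1 and 1.

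The promoters of the members were also read for short sequences. The members were chosen by role, so the shares of matches describe the list and not the changes on the arrays. RefSeq windows of GRCm38.p6, from 250 bases before to 50 after a gene's start, existed for 43 of the 51 genes, 9 of them with several windows, and a gene was counted if any of its windows held a match. E2F factors, which drive genes at entry into S phase, bind sequences such as TTTCCCGC, TTTCGCGC, TTTGCCGC and TTTGGCGC, and these 4 were searched on both strands. They occurred in 16 of 43 members (37.2%), in 5.08% of the 8350 tested genes with a window and in 2.60% of all 27025 genes of the table. The CCAAT box, the site of NF-Y, occurred on either strand in 25 of 43 members (58.1%) and in 43.2% of tested genes, and 10 members held both kinds. A match is a description of the letters and not a measured binding site.

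The matches below are examples from the 16 members with an E2F match, in genes of the licensing and copying machinery whose values follow. Orc3, Mcm6, Gins3, Pold1, Pole2, Lig1, Uhrf1 and Dnmt1 also have a match and are not among these lines. Each is given 5′ to 3′ on the gene's strand with 10 bases on either side, and capitals mark the match.
Orc1, chr4:108579417-108579444, plus strand: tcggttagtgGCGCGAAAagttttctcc
Cdc6, chr11:98908003-98908030, plus strand: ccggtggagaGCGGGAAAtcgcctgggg
Cdt1, chr8:122568037-122568064, plus strand: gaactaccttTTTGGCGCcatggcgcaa
Mcm3, chr1:20820276-20820303, minus strand: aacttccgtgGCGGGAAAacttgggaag
Mcm5, chr8:75109346-75109373, plus strand: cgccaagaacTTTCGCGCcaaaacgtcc
Mcm7, chr5:138172031-138172058, minus strand: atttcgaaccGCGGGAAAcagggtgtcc
Pola1, chrX:93632276-93632303, minus strand: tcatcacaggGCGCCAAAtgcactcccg
Rfc3, chr5:151651201-151651228, minus strand: cgtcgcacgcTTTCGCGCtcgcgggaaa
In Mcm5 the match overlaps one on the other strand, as the letters after it show, and Rfc3 has another match just downstream. Mcm3 and Mcm7 also have another E2F match further downstream, not shown.

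The median change was 0.20 above that of the tested genes for the 16 members with an E2F match, 15 of which were higher than it. It was 0.22 for the 27 members without one, of which 22 were higher; this difference was not tested. The upstream 150 bases of 4 genes are shown as examples of both kinds: Mcm6, the lowest member, and Cdc6 hold E2F letters, while Rrm1 has CCAAT letters alone and Tk1, the highest member, has neither. Capitals mark E2F and CCAAT matches on either strand, and in Mcm6 the first capital run holds 2 overlapping E2F matches.
Mcm6, chr1:128359706-128359855, minus strand: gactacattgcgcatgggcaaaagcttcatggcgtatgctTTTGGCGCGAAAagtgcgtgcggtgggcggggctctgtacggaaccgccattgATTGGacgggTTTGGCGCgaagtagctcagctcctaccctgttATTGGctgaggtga
Cdc6, chr11:98908001-98908150, plus strand: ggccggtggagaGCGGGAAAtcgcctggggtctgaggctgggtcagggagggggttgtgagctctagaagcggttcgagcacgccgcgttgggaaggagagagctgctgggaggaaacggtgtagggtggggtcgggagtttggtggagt
Rrm1, chr7:102441545-102441694, plus strand: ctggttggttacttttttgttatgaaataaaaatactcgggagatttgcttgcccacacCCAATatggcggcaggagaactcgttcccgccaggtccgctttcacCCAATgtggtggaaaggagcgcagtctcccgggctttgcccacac
Tk1, chr11:117826015-117826164, minus strand: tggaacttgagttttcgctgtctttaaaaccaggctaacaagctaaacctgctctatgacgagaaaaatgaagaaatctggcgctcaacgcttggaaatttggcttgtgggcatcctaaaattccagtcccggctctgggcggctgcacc

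The origin recognition complex marks the sites where replication can start. Of its 6 subunit genes 4 lay above the median change, with a median of 0.13. Orc6 had centred signals of 335 and 334 in the hypomorphs against 228 and 252 in the controls. The groups did not overlap, and the log2 change was 0.48 ± 0.15 (SE), or 0.27 above the median. Orc1, the subunit whose level follows the cell cycle, had dimmer signals of 109 and 87.8 against 70.1 and 71.9, a log2 change of 0.45 ± 0.22. Orc4 was at 0.17 and Orc3 at 0.09 relative to the median, and Orc5 and Orc2 were at -0.02 and -0.04, within their standard errors of 0.15 and 0.16. Other probe sets disagreed here: the tested others of Orc4 were at -0.45 and -0.22, those of Orc3 at -0.35 and -0.09 and that of Orc1 at -0.10, so that with the mean of all probe sets Orc3 and Orc4 lay below the median.

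All 3 genes of the loading step lay above the median. Gmnn encodes geminin, which binds Cdt1 and blocks relicensing after S phase has begun. Its signals were 952 and 1021 in the hypomorphs and 657 and 710 in the controls, a log2 change of 0.53 ± 0.13 (adjusted p in limma 0.197). Cdc6, the ATPase that loads MCM rings, had 368 and 424 against 274 and 278, a log2 change of 0.52 ± 0.14. Cdt1, its partner, had 1376 and 1574 against 1144 and 1053, a log2 change of 0.42 ± 0.14. For each of these genes both hypomorph values exceeded both control values, as they did for 51.7% of tested genes. Relative to the median these genes were at 0.32, 0.30 and 0.21.

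The genes of the MCM ring, whose 6 proteins assemble in equal numbers, spread more widely than any other role in the list. Mcm3 had signals of 1239 and 1167 in the hypomorphs and 725 and 783 in the controls, a log2 change of 0.67 ± 0.13 (95% confidence interval 0.39 to 0.96). Its mean log2 level was 10.23 ± 0.06 against 9.56 ± 0.08 (SD, n = 2 each). Mcm6 had 1547 and 1785 against 1719 and 1783, so the groups overlapped, with a log2 change of -0.08 ± 0.14 (95% confidence interval -0.38 to 0.23). Relative to the median these genes were at 0.46 and -0.29, the highest and the lowest of the 6; the difference between them was not tested. Mcm2 had 765 and 778 against 560 and 556, or 0.25 relative to the median. Mcm5 and Mcm4 were at 0.16 and 0.15 with overlapping groups once arrays were set on their median gene, and Mcm7 was at 0.04. Over the alternatives Mcm5 was at 0.0021 (without control replicate 2) to 0.33 and Mcm4 at 0.05 (without hypomorph replicate 2) to 0.26, while Mcm7 lay below the median without hypomorph replicate 2 or without control replicate 2.

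Other probe sets of the same MCM genes often gave other values. Mcm6 had a second tested probe set at 0.06, against -0.29 for the brightest. The other 3 probe sets of Mcm7 were at 0.20 to 0.32, and those of Mcm4 and Mcm5 at 0.35 and 0.36, each above its gene's brightest. The second probe set of Mcm2 was at -0.23, against 0.25. For Mcm3, 3 of 4 others were at 0.29 to 0.50 and the dimmest was at -0.48. The probe sets of Mcm3 thus spanned more than the brightest ones of the 6 genes did, though only through its dimmest. Over the alternatives Mcm6 stayed below the median, at -0.35 to -0.10. Several of the brightest have names ending in _s_at or _x_at, which Affymetrix gave to probe sets that can match transcripts of more than 1 gene. Of the 51, 3 and 5 are of these kinds, and a further 11 end in _a_at.

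**Figure D3:**
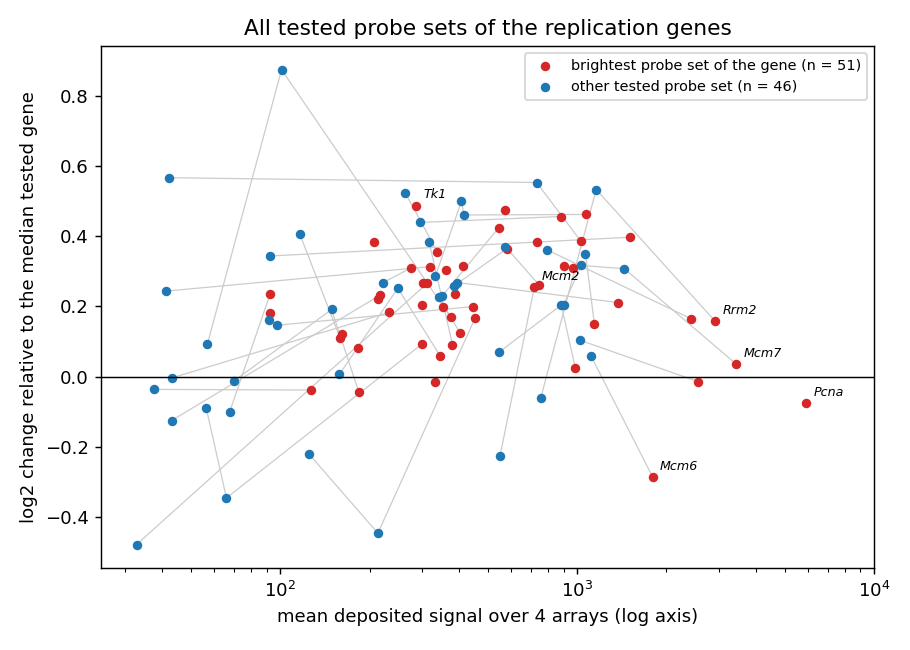
Mean deposited signal over the 4 arrays (x axis, log scale) against log2 change relative to the median tested gene (y axis) for the 97 tested probe sets of the members, with grey lines joining probe sets of a gene. Of the 46 that are not the brightest of their gene, 33 lie on the same side of 0 as the brightest.

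The genes that fire licensed origins were all above the median, 8 of 8, with a median of 0.22. Dbf4, the regulatory subunit that activates the kinase Cdc7, had signals of 821 and 796 in the hypomorphs against 509 and 561 in the controls. Its log2 change was 0.60 ± 0.13 (adjusted p in limma 0.175), and 0.38 relative to the median. Cdc7 itself had 450 and 499 against 355 and 357, or 0.20 relative to the median. Mcm10, which helps start unwinding at the activated helicase, had 225 and 235 against 148 and 156, a log2 change of 0.59 ± 0.16. The groups did not overlap in these 3 genes, as in 51.7% of tested genes with the hypomorphs higher, and none passed the adjusted threshold.

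The GINS complex and Cdc45 join the MCM ring to form the working helicase. Gins1 had 352 and 343 in the hypomorphs against 238 and 244 in the controls, a log2 change of 0.52 ± 0.14. Gins4 had 410 and 420 against 288 and 320, a log2 change of 0.45 ± 0.14. Cdc45, Gins3 and Gins2 were at 0.18, 0.18 and 0.11 relative to the median. The last of these lay below the median without hypomorph replicate 1 or without control replicate 2, and its other probe set was at 0.41.

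Polymerase and primase genes had the narrowest span among the roles with 6 or more genes. All 8 lay above the median, between 0.08 for Pole and 0.31 for Prim2. Prim1, the catalytic subunit of the primase that lays down RNA primers, had signals of 761 and 850 in the hypomorphs against 600 and 558 in the controls, a log2 change of 0.47 ± 0.13. Prim2, its partner, had 281 and 327 against 215 and 207, a log2 change of 0.52 ± 0.15. Pola1, the catalytic subunit of polymerase alpha, had 319 and 335 against 220 and 250, and Pola2 had 224 and 240 against 170 and 170, so the brightest probe sets of the 4 genes of the primase complex were at 0.23 to 0.31 relative to the median. The dim other probe set of Pola2 was at -0.13, and the mean of its probe sets at 0.07. Pold2, a subunit of the lagging-strand polymerase delta, and Pole2, of the leading-strand polymerase epsilon, were at 0.21 and 0.20. Their catalytic partners Pold1 and Pole were at 0.13 and 0.08, and both lay below the median without control replicate 2.

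Genes of the clamp and its loader covered a range of values, and differences between them were not tested. Pcna, the sliding clamp that tethers polymerases, had the brightest probe set of all members, with 5380 and 6331 in the hypomorphs and 5364 and 5270 in the controls. Its log2 change was 0.13 ± 0.16 (95% confidence interval -0.21 to 0.48), or -0.08 relative to the median, and 0.11 relative to it with quantile normalization. Rfc4, a small subunit of the clamp loader, had 606 and 612 against 406 and 377. Its log2 change was 0.63 ± 0.13 (adjusted p in limma 0.159), and the groups did not overlap. Rfc3 had 356 and 388 against 219 and 286 and Rfc5 had 462 and 431 against 290 and 329, or 0.36 and 0.32 relative to the median. Rfc2 was at 0.17 and Rfc1, the large subunit, at 0.06. The other probe sets of Rfc2 were at 0.09 and 0.88, and that of Rfc3 at 0.52.

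Replication protein A, the heterotrimer that coats single-stranded DNA, showed unequal values for its subunit genes. Rpa3, the smallest subunit, had signals of 1032 and 1087 against 709 and 769, a log2 change of 0.52 ± 0.13. Rpa2 had 408 and 372 against 328 and 304, or 0.09 relative to the median. Rpa1, the large subunit, had 2256 and 2938 against 2301 and 2192, so the groups overlapped, at -0.01 relative to the median. Second probe sets of Rpa2 and Rpa1 were at 0.39 and 0.10.

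Among the 3 genes grouped here for finishing the lagging strand or removing uracil, Lig1 was the highest. It encodes the ligase that seals Okazaki fragments, and it had 628 and 668 in the hypomorphs against 411 and 393 in the controls. Its log2 change was 0.68 ± 0.13 (95% confidence interval 0.39 to 0.98; adjusted p in limma 0.147), and it was at 0.39 to 0.56 relative to the median over the alternatives. Fen1, the flap endonuclease that trims those fragments, had 603 and 685 against 496 and 374, a log2 change of 0.58 ± 0.16; relative to the median it was at 0.36 with all arrays, and at 0.11 to 0.62 over the alternatives. Ung, which removes uracil from DNA, had 142 and 201 against 146 and 123. Its groups overlapped and it was at 0.12 relative to the median.

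Nucleotide supply held some of the largest values and 1 of the lowest. Tk1, the cytosolic thymidine kinase of S phase cells, had signals of 339 and 310 in the hypomorphs against 184 and 214 in the controls. The groups did not overlap, and the log2 change was 0.70 ± 0.15 (adjusted p in limma 0.176), a factor of 1.62, or 1.40 relative to the median. Rrm1, the large subunit of ribonucleotide reductase, had 1152 and 1126 against 741 and 763, a log2 change of 0.60 ± 0.13. Its other probe sets, at 0.55 and 0.57 relative to the median, lay above the brightest at 0.39. Dut, the dUTPase that keeps uracil out of DNA, was at 0.40.

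Rrm2, the small subunit of the reductase, had 2806 and 3368 against 2424 and 2335, or 0.16 relative to the median, while its other probe sets were at 0.53 and -0.06. Tyms, thymidylate synthase, had dim signals of 132 and 118 against 104 and 117 and was at -0.04, as was its other tested probe set.

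**Figure D4:**
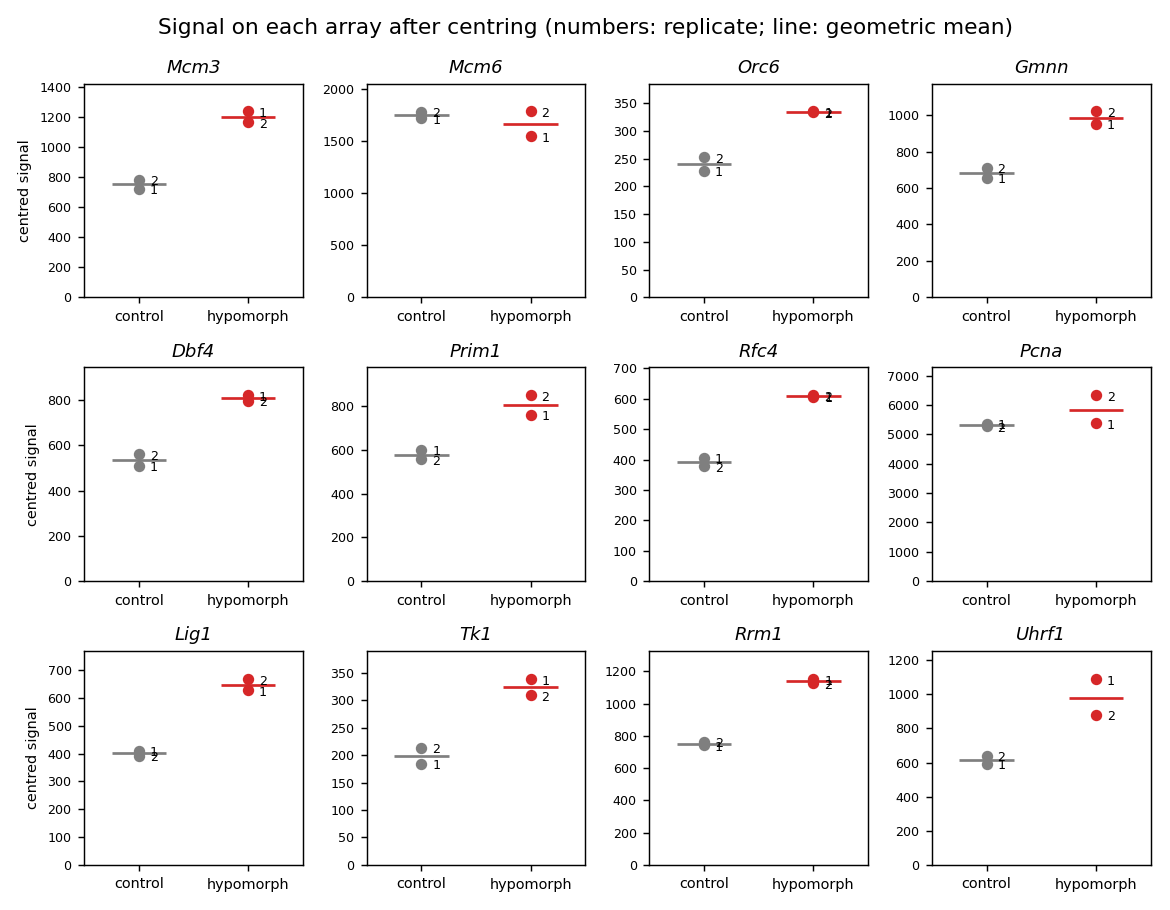
Centred signal (y axis, from 0) on each array for 12 members, with control arrays in grey and hypomorph arrays in red; numbers give the replicate and lines the geometric mean. The groups overlap for Mcm6 and not for Mcm3, Lig1, Tk1 or Rfc4, while for Pcna hypomorph replicate 1 (5380) is just above control replicate 1 (5364). Of all tested genes, 51.7% have groups that do not overlap with the hypomorphs higher.

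Of the genes that rebuild chromatin behind the fork, Uhrf1 was the highest. Uhrf1 recognises hemimethylated DNA and recruits Dnmt1, the methyltransferase that copies methylation to the new strand. It had 1089 and 881 in the hypomorphs against 595 and 638 in the controls, a log2 change of 0.67 ± 0.14 (adjusted p in limma 0.169). Its second probe set was at 0.44 relative to the median, beside 0.46 for the brightest. Without hypomorph replicate 2 its log2 change was 0.82 and its adjusted p 0.0466, the only member to pass under any alternative. Dnmt1 had 966 and 1036 against 902 and 799, or 0.02 relative to the median, with its other probe sets at 0.07 and 0.20. Chaf1b, a subunit of the histone chaperone CAF-1, had 239 and 215 against 176 and 158, or 0.22.

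Other genes of the pathway, listed by name beside the members, had medians nearer to that of the tested genes. Of 27 tested fork and origin factors, 22 were above the median and 14 were higher at an unadjusted p under 0.05, with a median of 0.15. Clspn, the adaptor claspin of the S phase checkpoint, was at 0.42, Rnaseh2b at 0.33, the topoisomerase gene Top2a at 0.30 and Tipin at 0.23. Of 13 further supply and chromatin genes 9 were above it, with a median of 0.12, among them the histone chaperone genes Asf1b (0.38) and Nasp (0.32), Hat1 (0.28) and Hells (0.26). In that list 6 genes were higher at an unadjusted p under 0.05. The S phase checkpoint genes lay on both sides, with 6 of 11 above the median, 5 below it and a median of 0.02, and 3 were higher at an unadjusted p under 0.05. Wee1 was at 0.49, Brca1 at 0.41, Chek1 at 0.24 and Atr at 0.18, while Rad1, Cdc25a and Rad17, named after their values were seen, were at -0.29, -0.20 and -0.18. Of all tested genes, 18.3% were higher at an unadjusted p under 0.05 in limma, and the shift of 0.21 enters these counts too. With arrays centred on the tested probe sets the counts, in the order given, were 7, 4 and 2, against 4.38% of tested genes. None of the genes in these lists had an adjusted p under 0.05 in limma.

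Genes of neighbouring cell cycle steps are given for comparison, and the differences between lists were not tested. All 15 tested mitosis genes were above the median, with a median of 0.43. Of them 14 were higher at an unadjusted p under 0.05 in limma, against 18.3% of tested genes. With arrays centred on the tested probe sets 13 were, against 4.38% of tested genes. The kinetochore and checkpoint genes Ndc80, Bub1b, Cenpf and Bub1 were at 0.63, 0.58, 0.52 and 0.49. Of 16 G1 and S phase control genes 10 were above the median and 6 below it, the lowest at -0.26, with a median of 0.15. At an unadjusted p under 0.05 in limma 9 were higher, and 4 with arrays centred on the tested probe sets. The genes named next have the smallest p against a change of 0, into which the shift of 0.21 enters. Cdk4, the kinase partner of D cyclins, was at 0.41, Ccne1, which encodes cyclin E1, at 0.40, E2f8 at 0.27 and Rbl1 at 0.24. None of these genes passed the adjusted threshold either.

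Markers of thymocyte stages and of other cells are given beside the members, and their part in the members' values was not tested. Sums are over all genes of a list with a probe set, dim ones included. T lineage markers were bright, as the labelled tissue has it: 6 genes had summed centred signals of 16743 and 20031 in the hypomorphs and 16523 and 18566 in the controls, and a median of -0.15 against all tested genes. Of 8 genes of the CD4 and CD8 bearing stage 2 were above the median (median -0.13, sums 25803 and 28516 against 24295 and 28513). Of 8 early thymocyte genes 3 were above it (median -0.33, sums 1573 and 1511 against 1510 and 1381). Within that list Kit was at 0.56, Ptcra at 0.04, Notch1 at 0.01 and Hhex at -0.81.

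Markers of B cells, macrophages and dendritic cells lay below the median. None of 5 B cell genes was above the median (median -0.69), with sums of 380 and 393 in the hypomorphs against 481 and 607 in the controls. Macrophage genes were at a median of -0.75 (sums 483 and 268 against 520 and 460, 0 of 5 above) and dendritic cell genes at -0.39 (sums 1588 and 1717 against 2065 and 1800, 0 of 6 above). H2-Aa alone gave 1080 and 1161 against 1354 and 1301 of the dendritic cell sums, which therefore mainly follow that gene. Of 5 granulocyte genes all were above the median, but their sums of 2021 and 3505 lay between those of control replicates 1 and 2 (578 and 5476). Among 5 erythroid genes, markers of another dividing lineage, Epor alone passed the filter on dim signals, at 0.89. Epor was dim, with centred signals of 33.7 and 47.7 in the hypomorphs against 27.3 and 10.9 in the controls. Its mean in the controls lay below the limit of that filter and its mean in the hypomorphs above it. The value of 0.89 therefore rests on signals near that limit. The sums of the 5 genes were 81.1 and 84.1 against 80.4 and 44.1. Of 6 thymic epithelial genes 3 passed it, with sums of 231 and 167 against 173 and 194, and of 5 mature thymocyte genes 2 were above the median (median -0.12, sums 1371 and 1797 against 1409 and 1386). No marker signal was at 0 on any array.

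**Figure D5:**
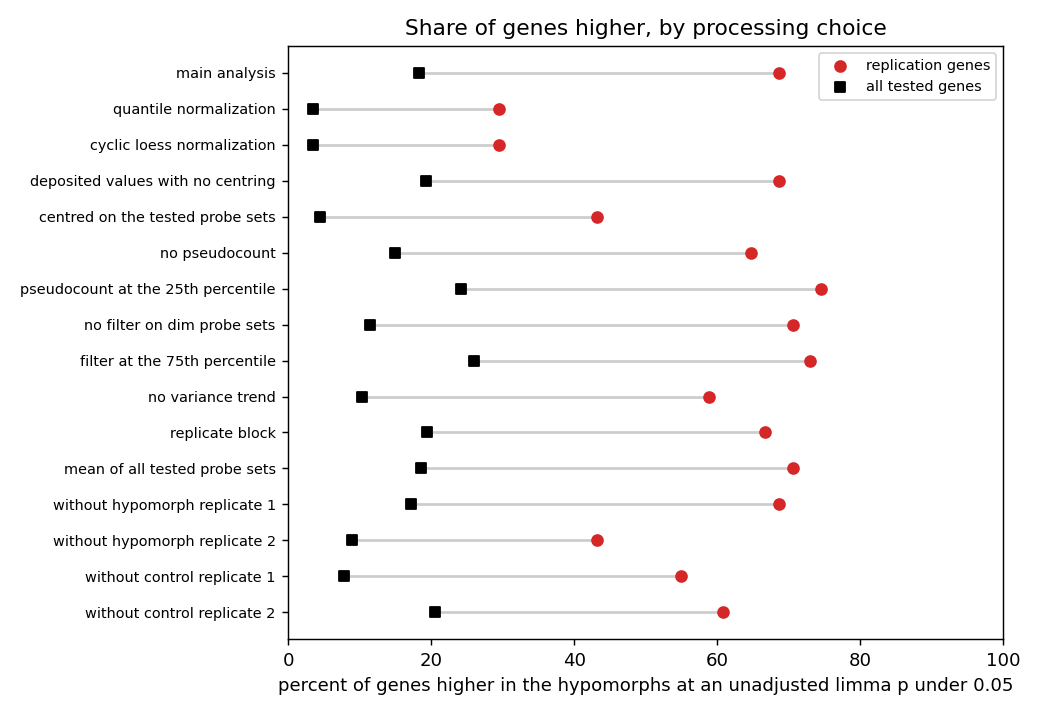
Percent of the replication genes (red) and of all tested genes (black) that were higher in the hypomorphs at an unadjusted limma p under 0.05 (x axis) under the main analysis and 15 alternatives (y axis). The main shares are 68.6% and 18.3%; the lowest member share is 29.4%, with quantile and cyclic loess normalization, beside 3.41% and 3.47% of tested genes.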

How the data were processed

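Total RNA of total thymocytes was isolated with a Qiagen column kit and hybridised to Affymetrix arrays, per the labels' protocols. The authors deposited 1 linear intensity (signal) per probe set and array, and the submitters' processing notes name GCOS; no version, scaling target or detection call is given in the sources used here. After 64 control probe sets were left out, 45037 remained, of which 34945 carried 1 symbol in the platform annotation, 932 several and 9160 none.

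The 10th percentile of the signals, 2.29, was added as a pseudocount before log2. Folds on this log2(value + pseudocount) scale understate those of dim genes. Arrays were then shifted to 1 common median. The 22519 probe sets at or above the median mean level were tested with limma 3.58.1 in R 4.3.3 (variance trend, two-sided, no covariates, Benjamini-Hochberg over all of them, threshold 0.05). The procedure was tested on simulated data. With 2 arrays a group, 0.333 is the smallest p of an exact two-sided permutation test, so p-values rest on a variance model shared across probe sets, and the number of arrays limits the precision. Members, lists and motifs were chosen with earlier results of these data known. Named genes are the members and, from each other list, up to 4 with the smallest p. Genes of 1 pathway vary together, so counts of members are descriptions. Replicate numbers are not said to pair animals.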

Additional observations from a re-analysis of the deposited data

How the results depend on the processing

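The count of members above the median change was 45 of 51 in the main analysis and 37 to 49 over 15 alternatives. It was lowest without control replicate 2 and highest with no filter on dim probe sets. The median relative to the tested genes was 0.21 in the main analysis, 0.27 with no filter on dim probe sets, 0.25 with the mean of all tested probe sets, and 0.17 to 0.28 when 1 array was left out. The count of members higher at an unadjusted p under 0.05 in limma was 35 in the main analysis, against 18.3% of tested genes. It was 15 with quantile normalization (3.41% of tested genes) and 15 with cyclic loess normalization (3.47%). With arrays centred on the tested probe sets it was 22 (4.38%). The shift of 0.21 was 0.02, 0.02 and 0.04 under these alternatives, in that order. The number of members with an adjusted p under 0.05 in limma, 0 in the main analysis, was 0 to 1 when 1 array was left out (Uhrf1, without hypomorph replicate 2) and 0 under the other alternatives. Over all tested probe sets, 14 were called in the main analysis, 4 with quantile normalization, 5 with cyclic loess, 84 on uncentred values, 7 when centred on tested probe sets only, 4 with no filter, 0 without the variance trend, 2 with the mean of probe sets, and 8 to 340 when 1 array was left out. With the replicate number as a block 9 probe sets were called, none of them of a member. In that fit 34 members were higher at an unadjusted p under 0.05 in limma, against 19.3% of tested genes. Deviations of same-numbered arrays correlated at 0.08.

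Log2 changes against 0 turned sign for 6 members, with main values of -0.08 for Mcm6, 0.24 for Dnmt1, 0.20 for Orc5, 0.17 for Orc2, 0.17 for Tyms and 0.13 for Pcna. For Mcm6 it was 0.25 on uncentred values, 0.10 with the mean of probe sets, and -0.178 to 0.028 when 1 array was left out. With quantile normalization it was -0.015 for Dnmt1, -0.0247 for Orc2 and -0.0375 for Orc5. With cyclic loess it was -0.0372 for Orc2, -0.0341 for Orc5, -0.0086 for Pcna and -0.0022 for Tyms. With centring on the tested probe sets it was -0.0066 for Orc2, -0.0393 for Pcna and -0.0010 for Tyms. Relative to the median, 36 of 51 members kept their side under every alternative that gave them a value. The median standard error of a member was 0.15, so a change of 0.32 is about the half-width of its 95% confidence interval.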

Other observations

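A group of very bright members was compared with the rest after their values were seen, at a limit of 2000 in mean signal. Above it lay 5 members, Pcna, Mcm7, Rrm2, Rpa1 and Mcm5, with a median of 0.04 relative to the tested genes, beside 0.23 for the other 46. These medians were 0.11 and 0.21 with quantile normalization and 0.06 and 0.21 with cyclic loess, so the gap was smaller there. The lowest member, Mcm6, lies below the limit, and Rrm2 and Mcm5 ranked 35 and 34 of 51 from the highest change. For the 4 members above the limit with another tested probe set, the next brightest, at a lower signal, had the higher change: 0.31 against 0.04 for Mcm7, 0.53 against 0.16 for Rrm2, 0.36 against 0.16 for Mcm5 and 0.10 against -0.01 for Rpa1. Among the 29 dimmer members with another tested probe set, the next brightest was higher in 14. The brightest probe sets of Mcm7, Rrm2 and Mcm5, but not those of Pcna and Rpa1, have names ending in _s_at or _x_at. Below the limit, members with brightest probe sets of these kinds were Mcm3 at 0.46, Fen1 at 0.36, Pold1 at 0.13, Gins2 at 0.11 and Dnmt1 at 0.02. Whether signal or kind of probe set limits the change seen at bright probe sets was not tested.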
